A study of Mus musculus with 4 samples.

Results

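Sox9, Runx2, Sp7, Acan, Comp, Scx, Tnmd, Alpl, Spp1 and Bglap, 10 genes that mark the cartilage, bone and tendon fates of mesenchymal progenitors, were followed in mouse cardiac mesenchymal progenitors (CMPs) that turned towards fat. They were found on the array by the gene name printed for each feature. Where RefSeq held the feature's accession, the name it gave was the same, and 22221 genes were named in this way, by accession or by name, on the whole array. A gene entered the comparisons when at least 1 of its features was well above background on at least 1 of the 4 arrays, as flagged by the scanner software, and 9 of the 10 did so, among 16658 genes in all. Tnmd did not.

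CMPs were Sca-1+ cells from the heart of adult C57BL/6 mice, and the CMP control was untreated. The title of the control gives no day of collection. CMPs came from the atria, by the study's methods. OSKM-CMPs carried Sendai virus encoding Oct4, Sox2, Klf4 and c-Myc and were collected at days 4, 6 and 8, counted from the change of medium on the day after the virus was added. The methods place OSKM-CMPs, but not growing CMPs, in a reprogramming medium without leukemia inhibitory factor, so virus, medium and time in culture cannot be told apart in a difference from the control. Each of the 4 conditions had 1 single-colour array. There was therefore no spread between cultures and no test, and each ± below is the scanner software's own measurement error for 1 standard deviation. Where several spots or features were averaged, their errors were combined as if independent. The choice of normalization is not part of this error.

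Mesenchymal progenitors can give rise to chondrocytes, osteoblasts, tendon cells or adipocytes, and each fate has its own transcription factors. Sox9 drives cartilage formation and its matrix genes, among them Acan. Runx2 and then Sp7 drive osteoblast formation, with Alpl as an early and Bglap as a late product, while Scx marks tendon progenitors and Tnmd mature tendon. These fates are known to compete with the adipocyte fate that Pparg directs.

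Levels below are processed signals of a feature, compared only with the same feature on other arrays, except in the sums over marker lists. Differences are on the log2 scale, after the 75th percentile of the array's own signals was subtracted, and a difference of at least 2-fold was used to call a gene higher or lower. The 75th percentiles were alike, between 388 and 411 in signal. Between 31498 and 33211 of 55681 features were well above background, no feature was saturated, and the lowest signal that counted as well above background lay between 8.53 and 10.7. All 9 genes of a list that marks mesenchymal progenitors were above background on all arrays. At day 8, 3 of these were at least 2-fold lower than in the control and 2 higher, against 11.6% and 14.4% of all genes, with a median of -0.36. Among these, Ly6a, which encodes Sca-1, was higher by 2.69 ± 0.20 at day 8 than in the control, and Thy1 fell by 1.78 ± 0.20.

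The genes that moved were read by 1 kept feature each of 60 bases. Bglap had a second feature, which was on no array well above background and was left out. The first 30 bases of the kept features show which part of each transcript was measured. The array's own positions for these features, in the mm9 build, are given where each gene is described. The annotation of that build was not used here, so exons and untranslated regions were not assigned.
Comp: ctgcgctaccgttgcaatgatacaatccct
Alpl: cctctttttggtgttggttaaaagggaaca
Scx: tgaacagagagatggacaggcgggtgatgg
Bglap: agcagcttggcccagacctagcagacacca

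Osteocalcin is encoded in the mouse by 3 neighbouring and similar genes, Bglap, Bglap2 and Bglap3, and similar features can bind each other's transcripts. The features of Bglap3 and Bglap2 share a stretch of 25 bases with 2 differences, which are in capitals here. Counted from 1 at the 5′ end of the stretch, with the Bglap3 base first, the differences were A2G and A16G.
Bglap3: aAaccagtatggcttAaagaccgcc
Bglap2: aGaccagtatggcttGaagaccgcc

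The windows before 2 transcription starts are shown because they hold the RUNX core TGTGGT, the letters that Runx proteins are known to bind, on the reverse strand (ACCACA, in capitals). They are the 250 bases before a RefSeq start of Bglap (GRCm38.p6, chr3:88384467-88384716, minus strand) and of Spp1 (chr5:104434861-104435110, plus strand).
Bglap: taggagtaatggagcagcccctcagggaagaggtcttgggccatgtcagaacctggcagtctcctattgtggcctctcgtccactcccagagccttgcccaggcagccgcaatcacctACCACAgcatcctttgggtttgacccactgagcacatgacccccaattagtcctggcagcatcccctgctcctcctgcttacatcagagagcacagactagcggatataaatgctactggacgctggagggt
Spp1: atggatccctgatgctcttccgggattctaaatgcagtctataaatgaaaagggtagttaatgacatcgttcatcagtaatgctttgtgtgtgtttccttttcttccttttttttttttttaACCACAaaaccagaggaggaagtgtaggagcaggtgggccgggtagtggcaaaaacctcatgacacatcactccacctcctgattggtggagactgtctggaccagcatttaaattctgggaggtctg

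The RUNX core lay at position -132 from the start of Bglap and at -128 from that of Spp1. Searched on both strands, it was also in the window of Runx2 at -80, where it overlaps an E-box (CANNTG) at -78. In all, 3 of the 8 windows that RefSeq held for 6 of the genes had the RUNX core, 7 had an E-box and none had the SOX core ACAATG. Over 32851 promoters of the same length, 14.0% held the RUNX core, 66.2% an E-box and 10.7% the SOX core. Bglap and Spp1, with the same letters in their windows, had different levels over time, as described next, and a match of letters is not a measured binding site. The windows of Acan, Alpl and Tnmd and a second window of Spp1 had no RUNX core. Sox9, Sp7, Comp and Scx were not in the table.

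Of the master regulators, Sox9 and Runx2 stayed within 2-fold of the CMP control on every day, Sp7 was close to background throughout, and Scx was higher on 1 day only. Sox9, the transcription factor of cartilage, had a feature at chr11:112648809-112648868 that is printed many times on each array, so that 9 spots stood behind each value. Its signal was 3245 in the control, then 2279, 2280.3 and 2545 on days 4, 6 and 8. The control was the highest of the arrays, and the 3 OSKM arrays lay close together below it. Sox9 differed from the control by -0.51 ± 0.07, -0.57 ± 0.07 and -0.43 ± 0.07 on days 4, 6 and 8. The normalization mattered more than this error: the day 8 difference was -0.29 with quantile normalization and -0.70 with the array median as the scale. Days 4 and 6 differed by -0.06 ± 0.07, which is within the measurement error. The spots of Sox9 on 1 array had an SD between 0.06 and 0.07 on the log2 scale.

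Runx2, the first transcription factor of osteoblasts, had 3 features on chromosome 17. The first, at chr17:44744925-44744984, gave signals of 60.9 in the control, then 49.7, 60.4 and 54.5 on days 4, 6 and 8. A second, at chr17:44633034-44633093, gave 118 in the control, then 110.5, 117 and 103 on days 4, 6 and 8. Both were well above background on all arrays and neither moved by as much as 2-fold. As their mean, Runx2 differed from the control by -0.19 ± 0.16 at day 4 and -0.26 ± 0.15 at day 8. The third feature, at chr17:44951128-44951187, did not rise well above background on any array, with signals from 4.36 to 9.44. Sp7, which acts after Runx2 in osteoblasts, had a signal of 20.4 in the control, then 15.3, 14.8 and 16.3 on days 4, 6 and 8 (chr15:102187692-102187751). All were flagged as well above background but lay near the faintest signals that could be told from it. The difference of Sp7 from the control was -0.40 ± 0.35 at day 8.

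Scx, the transcription factor of tendon progenitors, had a short-lived maximum. Its signal at chr15:76289708-76289767 was 200.4 in the control, then 537, 255 and 193 on days 4, 6 and 8. Day 4 stood apart from the other arrays, which were close to each other. The difference from the control was 1.43 ± 0.21 at day 4, a 2.69-fold higher level, and had shrunk to 0.29 ± 0.21 at day 6 and -0.13 ± 0.21 at day 8. Between day 4 and day 8, Scx fell by 1.56 ± 0.21. Tnmd, the tenomodulin gene of mature tendon, did not rise well above background on any array, with 9 to 10 spots on each and signals of 2.72 in the control, then 3.00, 3.10 and 2.64 on days 4, 6 and 8 (chrX:130397487-130397546). No fold change is given for it.

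**Figure D1:**
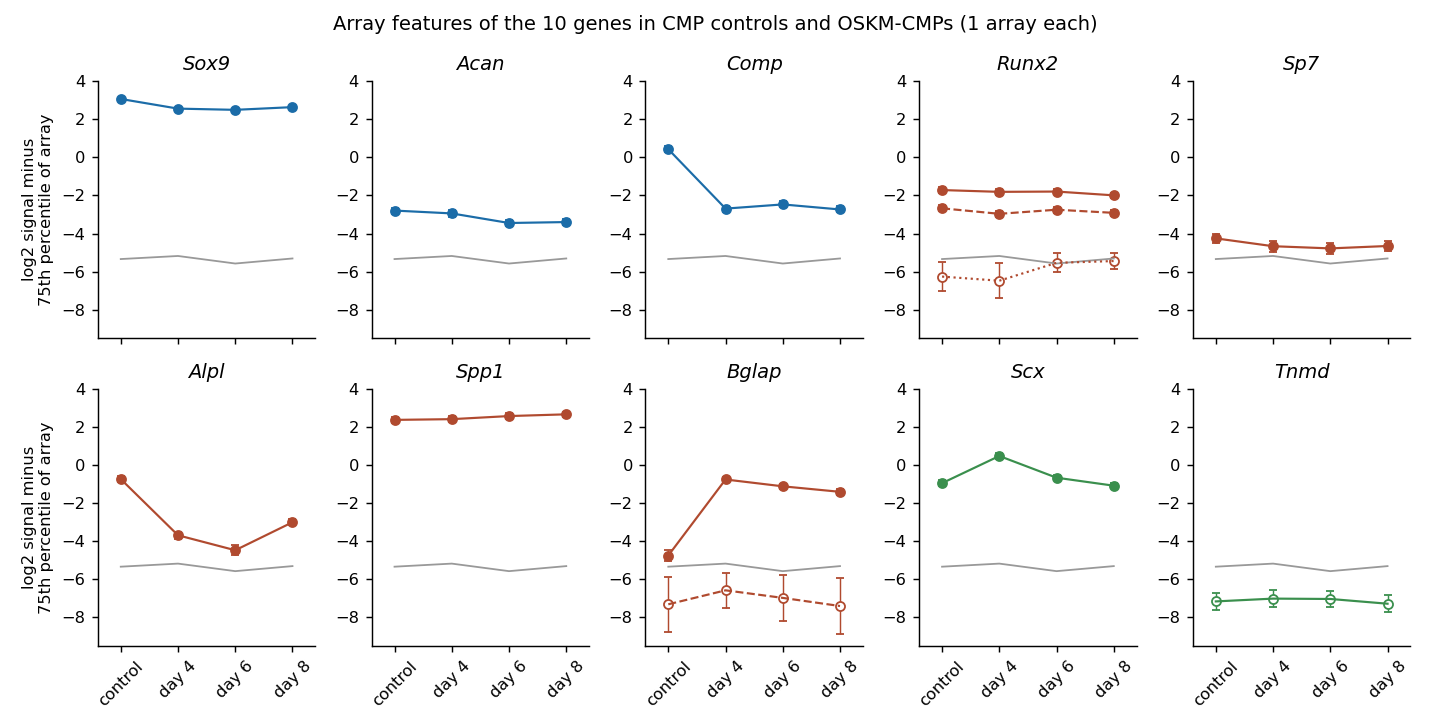
Scaled log2 signal (vertical axis, log2 of the processed signal minus that of the array's 75th percentile) of each feature of the 10 genes on the 4 arrays, 1 array per condition, with bars for the scanner software's error of the level. Blue marks cartilage, red bone and green tendon genes, separate lines are separate features, filled points are well above background, open points are not, and the grey line is the lowest level that counted as well above background. Comp and Alpl drop from the control to day 4, Bglap rises, Scx peaks at day 4, and Sox9, Runx2 and Spp1 stay nearly level.

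Of the matrix genes, Comp fell early and stayed low, while Acan stayed within 2-fold of the control. Comp encodes a protein of cartilage and tendon matrix. Its signal was 522 in the control, then 60.1, 73.2 and 61.6 on days 4, 6 and 8 (chr8:72905692-72905825), so the 3 OSKM arrays were alike and far below the control. Comp fell by 3.12 ± 0.21, 2.90 ± 0.21 and 3.16 ± 0.21 on days 4, 6 and 8, or 8.67-fold, 7.45-fold and 8.95-fold. Days 4 and 8 differed by -0.05 ± 0.22. Among the 16658 genes, Comp held place 201 from the lowest difference at day 4 and place 253 at day 8. Acan, the large proteoglycan of cartilage, gave signals of 56.1 in the control, then 50.4, 37.2 and 38.9 on days 4, 6 and 8 (chr7:86259741-86259801). It was lower than the control by less than 2-fold on each day, with differences of -0.15 ± 0.23 at day 4 and -0.60 ± 0.24 at day 8.

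The enzyme and matrix products of osteoblasts went separate ways: Alpl fell and came back in part, Spp1 was flat, and Bglap rose. Alpl encodes tissue-nonspecific alkaline phosphatase, which frees phosphate for mineral. Its signal was 233 in the control, then 30.1, 18.2 and 51.1 on days 4, 6 and 8 (chr4:137297658-137297716). All OSKM arrays were below the control, with day 6 the lowest. Alpl fell by 2.95 ± 0.24, 3.73 ± 0.31 and 2.26 ± 0.22 on days 4, 6 and 8. From day 6 to day 8 it regained 1.47 ± 0.32, a 2.77-fold higher level, yet it was still 4.81-fold below the control. The day 6 signal was faint, and the size of this return depended on the background correction, as given below. Spp1, which encodes osteopontin, a phosphoprotein made by osteoblasts and by many other cells, had a strong signal of 2001 in the control, then 2051, 2400.4 and 2585 on days 4, 6 and 8 (chr5:104868502-104868561). Its difference from the control reached 0.29 ± 0.20 at day 8, well under 2-fold.

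Bglap encodes osteocalcin, a small calcium-binding protein of bone that is widely used as a mark of mature osteoblasts. Its signal was 14.4 in the control, then 229, 187 and 154 on days 4, 6 and 8 (chr3:88188307-88188366). The control was close to background, and each OSKM array was far above it, with day 4 the highest. The difference from the control was 3.99 ± 0.31, 3.63 ± 0.31 and 3.34 ± 0.31 on days 4, 6 and 8, or 15.9-fold, 12.4-fold and 10.1-fold. Bglap held place 194 from the highest difference of the 16658 genes at day 4 and place 407 at day 8. From day 4 to day 8 it differed by -0.65 ± 0.21. A second feature of Bglap, at chr3:88187792-88187851, did not rise well above background on any array, with signals from 2.43 to 4.06. Both features were named by gene symbol. The array design assigns the first to a Bglap transcript and to a transcript missing from the RefSeq table used. It assigns the second only to a transcript missing from that table.

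The other osteocalcin genes gave the same shape over time with larger differences. Bglap2 had a signal of 17.6 in the control, then 2799, 2332 and 1839 on days 4, 6 and 8 (chr3:88181822-88181881), a difference of 7.32 ± 0.28 at day 4 and 6.63 ± 0.28 at day 8. One feature of Bglap3, at chr3:88172673-88172732, went from 12.3 in the control to 1754, 1387 and 1117 on days 4, 6 and 8. Another, at chr3:88172540-88172599, went from 48.6 to 3244, 2792 and 2235 on days 4, 6 and 8. These 4 features of the osteocalcin genes were lowest in the control and highest at day 4, and then declined. The third feature of Bglap3 (chr3:88173515-88173574) did not rise well above background on any array. Besides its own gene, the array design assigns a Bglap transcript to the Bglap2 feature and to the second Bglap3 feature, so these signals cannot be assigned to 1 of the 3 genes. The Bglap feature itself begins with 28 bases that equal the bases 23 to 50 of the Bglap transcript in RefSeq, counted from its start as 1.
Bglap, shared with the start of the transcript: agcagcttggcccagacctagcagacac

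**Figure D2:**
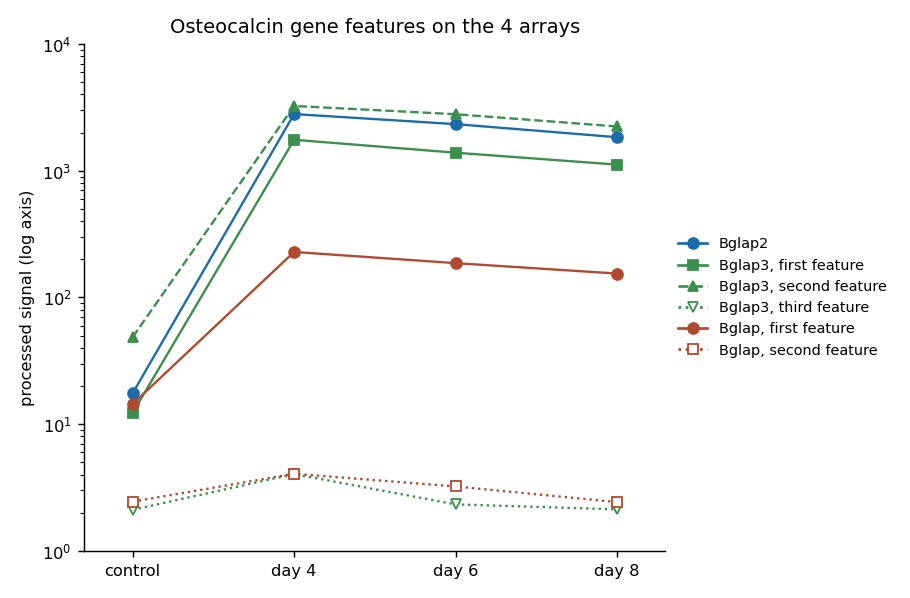
Processed signal (vertical log axis) of the 6 features of the osteocalcin genes on the 4 arrays (horizontal axis), with filled marks for features well above background and open marks for the others. The 4 measured features rise from signals of 12.3 to 48.6 in the control to 229 to 3244 at day 4 and then decline, and the other 2 stay at background.

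Genes next to the osteocalcin cluster were looked at after these values were seen, in the order of the RefSeq table. On one side, Paqr6 was higher by 0.54 ± 0.12 at day 4 and 1.01 ± 0.12 at day 8, Smg5 differed by -0.98 ± 0.20 and -1.05 ± 0.20, and Tmem79 by 1.32 ± 0.21 and 0.95 ± 0.21. On the other side, Pmf1 differed by -0.71 ± 0.15 and -1.73 ± 0.15 and Slc25a44 by -0.20 ± 0.15 and 0.08 ± 0.15. None of these 5 changed by nearly as much as the osteocalcin features, although Tmem79 was, like them, highest at day 4.

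Counted over the 9 measured genes, 2 (Comp and Alpl) were at least 2-fold lower at day 4, against 9.57% of all 16658 genes, and 2 (Bglap and Scx) at least 2-fold higher, against 12.1%. At day 6, the lower genes were again Comp and Alpl, with 11.4% of all genes lower, and 1 gene, Bglap, was higher, with 13.0% of all genes higher. At day 8 these counts were again 2 lower and 1 higher, against 11.6% and 14.4% of all genes. Between day 4 and day 8, Scx was the 1 gene that was at least 2-fold lower, against 4.10% of all genes, and none of the 9 was higher, against 4.93%. With 9 genes, 1 gene more or less moves these shares by a large step, and nothing was drawn from them about the genes as a group. The median difference of all genes from the control was between -0.01 and -0.04, so the middle of the distribution hardly shifted. When the array median replaced the 75th percentile, the median of all genes at day 8 was -0.30, with 16.9% of genes lower and 11.3% higher than the control, and 5.28% lower and 3.98% higher than at day 4. The calls among the 9 genes were the same with it.

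**Figure D3:**
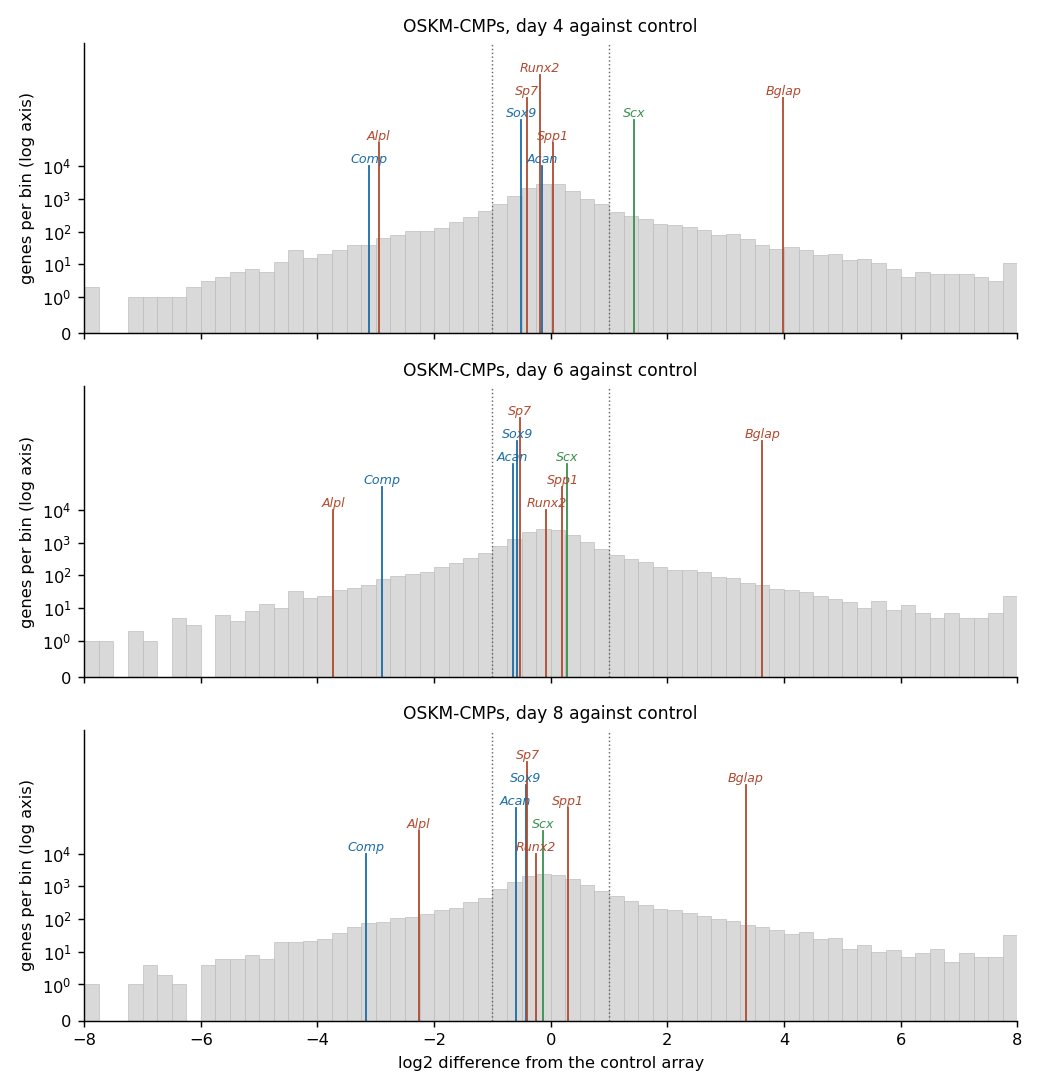
Histograms of the log2 difference from the control (horizontal axis) for all 16658 genes, in bins of 0.25 with a log axis of counts and differences beyond 8 placed in the outer bins, for days 4, 6 and 8 from top to bottom. Coloured lines mark the 9 measured genes (blue cartilage, red bone, green tendon) and dotted lines a 2-fold difference. Comp and Alpl lie in the lower tail and Bglap in the upper tail on all 3 days, Scx is beyond 2-fold at day 4 alone, and the others stay between the dotted lines.

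Markers of other cells moved over the same arrays, and their part in the differences of Comp, Alpl, Scx and Bglap was not tested. In RNA of whole cultures, fewer cells of a type and less RNA per cell cannot be told apart. The counts of markers are for day 8, when 11.6% of all genes were at least 2-fold lower and 14.4% higher. The sums add signals of different genes, so the brightest weigh most and a sum is not a level of its list. Median differences at day 8 were 8.04 for adipocyte, -4.78 for smooth muscle and -2.51 for endothelial genes. They were 1.40 for osteoclast, 0.02 for leukocyte and 0.91 for cardiomyocyte genes. With dim values raised to the lowest signal well above background, the adipocyte median was 7.39, endothelial -1.71, osteoclast 0.70 and cardiomyocyte 0.28. The adipocyte markers were at least 2-fold higher for 8 of 8 genes at day 8, 4 of them below background in the control, with a summed signal of 3162 in the control, then 18596, 73766 and 162079.5 on days 4, 6 and 8. Smooth muscle markers fell for 4 of 5 measured genes, with sums of 233981, 17499, 11694 and 10841, and Myh11 was not above background on any array. Lmod1 was the exception, higher by 1.12 ± 0.28 at day 8. Of 6 endothelial genes 4 were at least 2-fold lower, 3 of them below background at day 8, with sums of 750.4, 425, 481 and 439, and Cdh5, Emcn and Tie1 were above background in the control alone. Of the osteoclast list, 3 of 5 measured genes were higher, 1 of them below background in the control. Among these were Acp5, higher by 2.81 ± 0.14, and Ctsk, higher by 1.40 ± 0.20, both of which other cells make as well. The other measured genes of the list, Ocstamp, Oscar and Mmp9, were well above background on days 4, 6 and 8. Calcr, Dcstamp and Atp6v0d2, which are characteristic of osteoclasts, were on no array well above background. Leukocyte markers summed to 704, 652, 708 and 742, with 2 of 7 measured genes higher, 1 lower and below background at day 8, and Laptm5 not above background. Of the cardiomyocyte list, 2 of 5 measured genes were higher, both below background in the control, and 1 was lower, with sums of 4644, 1780, 2711 and 1688, and Actn2 was not above background.

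Other genes of the same fates were read from lists of chondrocyte, osteoblast and tendon genes. For a gene that was below background on the dimmer array, the fold is a bound: the signal on the bright array over the lowest signal that counted as well above background on the other, or over the gene's own signal where that was higher. Such genes are counted here by their measured difference, and their number is given. Each count below stands beside the shares over all genes, which were 11.6% lower and 14.4% higher at day 8, and 9.57% lower and 12.1% higher at day 4.

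Of the chondrocyte list, Sox9's known target Col2a1 fell, some matrix genes rose and others stayed within 2-fold. At day 8, 6 of the 20 measured genes were at least 2-fold higher, 1 of them as a bound below 2-fold (Snorc, at least 1.51-fold), and 1 was lower. The median difference was 0.41, beside -0.03 for all genes. Col2a1, the collagen of cartilage, went from a signal of 5418 in the control to 2958, 757 and 366 on days 4, 6 and 8, and fell by 3.96 ± 0.20. Epyc, a small proteoglycan of growth cartilage, went from 11.2 to 89.4, 807 and 2034, a difference of 7.43 ± 0.35. Prg4, the lubricin of joint surfaces, was higher by 4.27 ± 0.27 and the secreted factor Cytl1 by 3.23 ± 0.22. The minor cartilage collagen Col11a1 differed by -0.97 ± 0.20, and Col9a1, below background at day 8, was at least 1.60-fold lower. Col9a3, Matn1, Matn3, Hapln1 and Ihh, all characteristic of chondrocytes, were on no array well above background.

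Of the osteoblast list, which holds Bglap2 and Bglap3 as well, 7 of 22 measured genes were higher at day 8 and 4 were lower, with 1 and 2 of these resting on a bound, and the median was 0.02. Omd, an osteoblast proteoglycan, was higher by 3.29 ± 0.21. Phex, a peptidase of osteoblasts and osteocytes, was at least 6.03-fold higher at day 8. Tnfrsf11b, the decoy receptor osteoprotegerin, fell by 1.77 ± 0.20, and its ligand Tnfsf11 was at least 4.44-fold lower. Cthrc1, a secreted protein of matrix-forming cells, went from a signal of 481 in the control to 58.2 at day 4 and was at least 49.0-fold lower at day 8. The chains of bone's main collagen were level, Col1a1 with a difference of -0.23 ± 0.20 and Col1a2 with -0.11 ± 0.20. Ibsp, Dmp1 and Sost, genes of mature osteoblasts and osteocytes, were on no array well above background.

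Tendon genes were split: 8 of 24 were higher at day 8, 2 of them as bounds, and 10 were lower, with a median of -0.52. At day 4, when Scx was at its highest, 7 were higher, 2 of them as bounds, and 12 lower, 1 of them as a bound. Among the small proteoglycans of collagen fibrils, Lum was higher by 4.83 ± 0.20, Aspn by 4.00 ± 0.20, Dcn by 3.06 ± 0.20 and Kera at least 46.1-fold, while Fmod fell by 2.52 ± 0.20 and Bgn by 1.80 ± 0.20. Mkx, a tendon transcription factor, fell by 1.69 ± 0.22 at day 4 and 1.39 ± 0.22 at day 8.

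Of the 12 genes that control mineral, 2 were lower and 2 higher at day 8, 1 of the latter a bound below 2-fold (Abcc6, at least 1.55-fold), and the median was -0.23. These counts were close to the shares over all genes. Smpd3, a sphingomyelinase needed for mineral in bone, fell by 3.56 ± 0.22 and the phosphate transporter Slc20a1 by 1.28 ± 0.18. Nt5e, which makes adenosine that restrains Alpl, was higher by 2.10 ± 0.21. Anxa5, which binds membranes, differed by -0.76 ± 0.20. The pyrophosphate genes Enpp1 and Ank were within 2-fold, with differences of 0.05 ± 0.15 and 0.38 ± 0.20.

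Partners and antagonists of Runx2 and Sox9 numbered 21, of which 6 were lower and 3 higher at day 8, with 1 of the higher resting on a bound and a median of -0.16. Cbfb, the partner that Runx proteins need on DNA, differed by -0.06 ± 0.20. Hey1 and Hes1, Notch targets that act on Runx2, fell by 4.20 ± 0.21 and 2.55 ± 0.21, and Hes1 had been lower still at day 4, with a difference of -4.89. Hdac7, a histone deacetylase that represses Runx2, differed by -1.35 ± 0.20. Schip1 fell by 1.94 ± 0.23, and Ppargc1a, a coactivator in fat and muscle, was at least 7.48-fold higher.

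Relatives of the 10 genes in their own families did not always follow them. Beside the nearly level Runx2, Runx3 fell by 1.46 ± 0.23 at day 8. Runx1 differed by -0.94 ± 0.15 as a mean of features that disagreed, with -0.19 ± 0.21 for one and -1.70 ± 0.20 for the other. Comp, also known as thrombospondin 5, fell together with Thbs1, which differed by -1.19 ± 0.20, while Thbs2 was higher by 3.10 ± 0.20, Thbs3 by 1.03 ± 0.14 and Thbs4 at least 2.03-fold. Beside Acan, the related Vcan was higher by 1.28 ± 0.21 as a mean of features that differed. These gave 1.94 ± 0.20, 0.86 ± 0.20 and 1.03 ± 0.55, the last from a feature below background in the control. Bcan was at least 2.40-fold and Ncan at least 1.48-fold higher, both above background at day 8 alone. Cnmd, the cartilage relative of Tnmd, was above background at days 6 and 8, with signals of 25.1 and 15.6. Sox8, Tcf15, Alpi and Dspp were on no array well above background, and Sox10, Sp1, Sp3, Sp6 and Mepe were within 2-fold at day 8. Alppl2 was above background at day 8 alone, with a signal of 16.6. Of the 18 relatives measured, 8 were higher at day 8, 3 of them resting on a bound, and 2 were lower. The higher ones include Bglap2 and Bglap3, which the osteoblast list counts as well and whose signals cannot be assigned to a single gene.

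**Figure D4:**
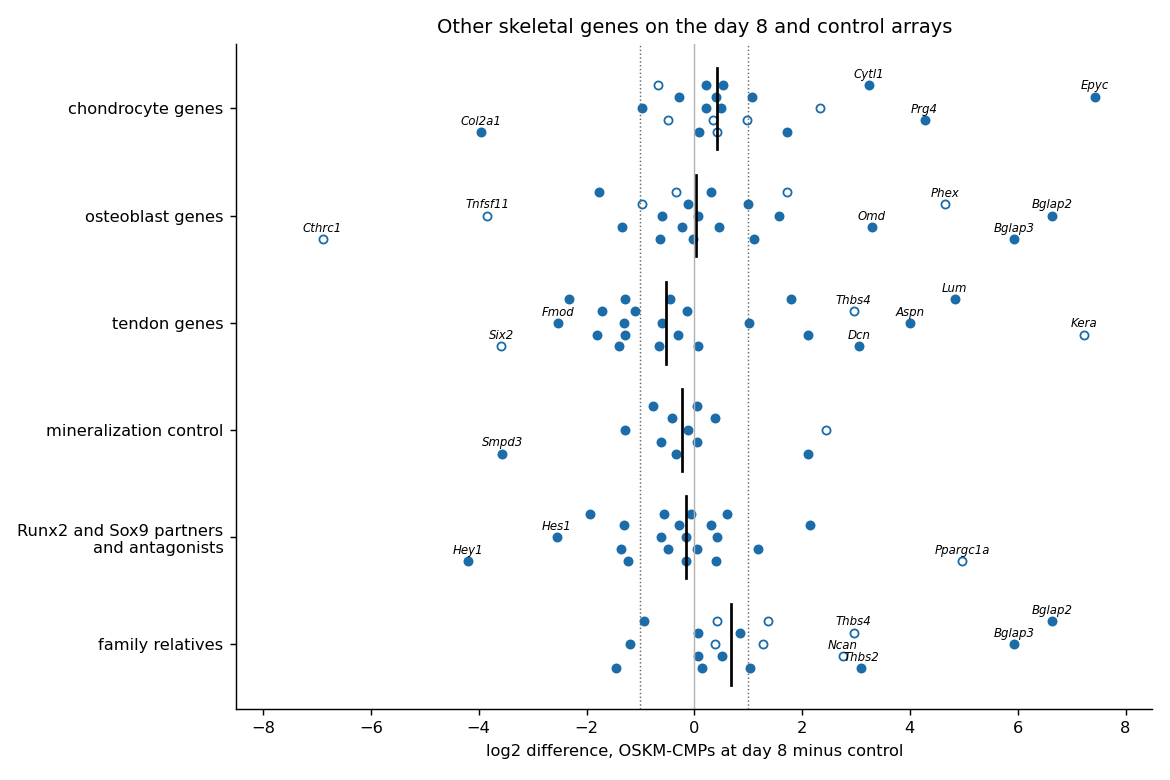
Log2 difference between the day 8 and the control array (horizontal axis) for each measured gene of 6 lists, which leave out the 10 genes themselves. Some genes, such as Bglap2 and Bglap3, are in more than 1 list. Open points had a feature that was not well above background on 1 of the arrays, black bars are medians, dotted lines are a 2-fold difference, and the outermost genes are named. Each list has genes on both sides of 0, with medians from -0.52 for tendon genes to 0.68 for family relatives (0.54 with dim values raised to the lowest signal well above background).

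The genes whose pattern was most like those of the 3 genes with the widest range were found over the 4 arrays among 13759 genes that were above background on all of them. The measure was the Euclidean distance between log2 levels centred on each gene's mean. With only 4 arrays it describes shape and nothing more. Nearest to Bglap were Hoxa2 at a distance of 0.25, Ly6g6c at 0.27 and Tspan11 at 0.29. Hoxa2 was higher by 3.65 at day 4 and 3.24 at day 8. Nearest to Alpl were Lyz2 at 0.40, Abcg1 at 0.41 and 2200002D01Rik at 0.48, all with a lowest level at day 6 and a partial return at day 8, as in Alpl. Lyz2 differed from the control by -3.53 at day 6 and -2.58 at day 8. Nearest to Comp were Synpr at 0.25, Naalad2 at 0.28 and Cd38 at 0.31.

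Background correction set how large the largest differences were. With normexp correction, whose offset of 50 raises faint signals, and quantile normalization, the day 4 difference was 2.04 for Bglap, -1.73 for Alpl, -2.22 for Comp and 1.12 for Scx, and the day 8 difference was 1.48, -1.50 and -2.33 for the first 3. Each stayed beyond 2-fold. For Alpl the day 6 difference was -1.89 with this correction, near its -1.50 at day 8, so its return after day 6 was much smaller. With the faint second feature of Bglap averaged in, Bglap was higher by 2.36 at day 4 and 1.63 at day 8.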

How the data were processed

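RNA of CMP controls and OSKM-CMPs was labelled with Cy3 (250 ng each) and hybridised to Agilent SurePrint G3 mouse arrays, 1 per condition. The authors deposited the scanner output, whose intensity values are the processed signals of Feature Extraction (version 10.7.3.1 in the file headers and 9.5.3 in the submitters' processing notes), already corrected for background. They also deposited log2 values normalized in GeneSpring GX, which matched the log2 processed signal less 1 constant per array, within 0.01, for at least 99.9964% of features and served as an alternative. Their positions are in the mm9 build.

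Control and outlier spots were left out, spots of a feature were averaged as log2 values, and each array was centred on its 75th percentile. A feature was kept if it was well above background on 1 array or more (35544 features), and a gene is the mean of its kept features. Features were named by RefSeq accession (26762), symbol (3819) or unique synonym (639), and 24461 had no name. RefSeq sequences are of GRCm38.p6. One list is shown without a gene that is not reported here. The members and lists were chosen with earlier results of these data known. The text names, for each list, up to 4 genes with the largest day 8 difference in 1 direction on all 3 days and up to 3 with the largest bound, besides all family relatives, any marker gene, and Col11a1, Bgn, Mkx, Col1a1, Col1a2, Enpp1, Ank and Cbfb, which were chosen after their values were seen.

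Python 3.11.15, numpy 2.4.6, pandas 2.3.3, matplotlib 3.10.9 and limma 3.58.1 in R 4.3.3 (normexp, offset 50) were used. The calculation was tested on simulated data, whose noise was smaller than the scanner software's error and held no spread between cultures. That test covers the counting step alone. No test between conditions was made, since the number of arrays allows none.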

Additional observations from a re-analysis of the deposited data

How the results depend on the processing

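With 1 array per condition, a replicate could not be left out and nothing speaks for the spread between cultures. No paired analysis was possible because there is only 1 array for every condition, so that nothing was tested. The counts of genes past 2-fold were recomputed under 11 settings over the 9 genes and 4 comparisons, and 82 of 88 values were identical. All values that differed came from the thresholds of 1.5-fold and 3-fold. Some settings could hardly change a count: all 9 genes were above background on all arrays, and the authors' values differ from those used by 1 constant per array. The share of identical values is therefore a weak sign of stability. At a threshold of 3-fold, 1 gene (Bglap) was higher at day 4 and 0 were lower between day 4 and day 8. At 1.5-fold, 1 gene (Alpl) was higher and 2 (Scx and Bglap) were lower between day 4 and day 8, and Acan joined Comp and Alpl as 3 lower genes at days 6 and 8. No change of a gene that was past 2-fold changed its sign under the 9 settings for single genes. Faint signals, such as those of Sp7, Tnmd and Bglap in the control, have larger measurement errors than the bright ones.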
